A study of Drosophila melanogaster with 2 samples.

Results

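Genes for aminoacyl-tRNA synthetases were examined for binding by cato, a transcription factor of the atonal family with a basic helix-loop-helix domain, in Drosophila melanogaster embryos. Members were chosen by symbol alone, as protein-coding genes named by an amino acid code (or GluPro) followed by RS. There were 33 such genes among 13968 protein-coding genes on the main chromosome arms. Of these, 18 have no mitochondrial suffix and 15 end in -m, the mark of a mitochondrial enzyme. A peak was given to a gene where its summit lay within 1000 bp of any annotated start site of that gene.

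The data come from 1 condition, whole embryos aged 0 to 16 h of the strain the labels call cato-GFP, both sexes pooled, in 2 biological replicates that the labels number 1 and 3. The transgenic line stably carries a C-terminal fusion of cato with enhanced GFP (cato-eGFP), and chromatin was precipitated with an antibody against GFP. Whole embryos mix every tissue, and no untagged line or second condition was analysed here. The 2746 peaks that passed the authors' irreproducible discovery rate (IDR) threshold are called IDR peaks, and each replicate also has its own list of 30000 peaks that includes weak ones and background.

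Aminoacyl-tRNA synthetases join each amino acid to its transfer RNA and so supply every ribosome with charged tRNA. Mitochondria keep their own translation system, and its synthetases are encoded in the nucleus, in flies mostly by separate genes. The enzymes are needed in every growing cell, and their genes are usually described as broadly expressed. The cato protein is known from the development of sense organs, and proteins of its class bind the E-box, CANNTG.

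An IDR peak was found at 8 of the 33 synthetase genes, or 24.2%, beside 15.7% of all protein-coding genes. The 8 genes were IleRS, GluProRS, ThrRS, SerRS, AspRS, AsnRS, LeuRS-m and ProRS-m. Among genes whose symbol is not a CG number, as is true of every synthetase here, the share over the whole annotation was 19.6%. With 1 condition there was no contrast between samples to test, and the count is a description beside that background.

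The sequences at the summits are shown first because they hold the base composition and the motif matches described later. Each line below is the strongest IDR summit of a gene with 50 bases on either side of it, from the RefSeq copy of dm6, on the strand of the synthetase gene. Capitals mark matches to CANNTG and to TATAAA on either strand, the only searched motifs that these 6 windows hold. The window of SerRS lies over an exon and is not printed.
IleRS, chr3L:22288431-22288531, plus strand: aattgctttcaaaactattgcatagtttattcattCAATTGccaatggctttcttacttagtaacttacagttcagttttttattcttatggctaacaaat
GluProRS, chr3R:23958473-23958573, minus strand: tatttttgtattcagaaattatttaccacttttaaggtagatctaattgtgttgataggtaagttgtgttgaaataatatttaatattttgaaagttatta
ThrRS, chr2L:12103520-12103620, plus strand: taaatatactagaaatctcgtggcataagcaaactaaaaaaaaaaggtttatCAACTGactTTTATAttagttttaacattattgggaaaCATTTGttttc
AsnRS, chr2L:19132031-19132131, minus strand: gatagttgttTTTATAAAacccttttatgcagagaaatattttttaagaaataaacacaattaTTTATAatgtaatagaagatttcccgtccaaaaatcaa
ProRS-m, chr3L:2651937-2652037, minus strand: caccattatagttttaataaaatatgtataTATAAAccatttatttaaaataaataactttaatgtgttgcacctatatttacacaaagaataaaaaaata
LeuRS-m, chr3L:4824946-4825046, plus strand: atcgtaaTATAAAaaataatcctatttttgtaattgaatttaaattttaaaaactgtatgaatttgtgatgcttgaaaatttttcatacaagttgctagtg

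These windows were poor in G and C. The median GC content over the 8 summit windows, with SerRS and AspRS included, was 23.8%, beside 30.7% over all 1634 IDR summits within 1000 bp of a protein-coding start site. The lowest was 16.8% at ProRS-m and the highest 28.7% at AspRS. Matches to TATAAA on either strand were in 6 of the 8 windows, beside 24.7% of the 1634. TATAAA is itself made of A and T, and the part of base composition in that count was not tested.

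E-boxes were not a shared feature of the summits. CANNTG was in 3 of the 8 windows, those of IleRS, ThrRS and AspRS, beside 31.0% of all promoter summits. IleRS held CAATTG, its first base 15 bp before the summit, and ThrRS held CAACTG, beginning 2 bp after the summit, and CATTTG, beginning 40 bp after it. CAGCTG and CATATG, E-box classes that were also searched apart, were in 0 of 8 windows, beside 3.37% and 3.73% of all promoter summits. The site of the replication-related factor DREF (TATCGATA), the core of promoter motif 1 (GGTCACAC) and the GAGA repeat (GAGAG) were also in 0 of 8, beside 2.51%, 0.857% and 7.77%. The site of the boundary protein BEAF (CGATAG, which shares bases with TATCGATA) was in 1 window, that of AspRS, beside 5.69%. With 8 windows, counts of 0 are not informative for motifs this rare.

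The synthetase gene with the strongest peak was LeuRS-m, for the mitochondrial leucyl enzyme (FBgn0027085, chromosome 3L from 4825853 to 4829038, plus strand). Its IDR peak, from 4824957 to 4825101, had a signal value of 218.8, the authors' own measure of peak strength, and ranked 317 of 2746. The overlapping peaks had signal values of 61.7 in replicate 1 and 117.9 in replicate 3, at ranks 420 and 274. The summit was 857 bp upstream of LeuRS-m, in an intron of Dhc64C, the cytoplasmic dynein heavy chain gene, and 691 bp from the start of Dhc64C. This was the synthetase summit closest to the 1000 bp limit. No synthetase gene had its nearest IDR summit just outside the limit, between 1000 and 2000 bp.

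GluProRS encodes the bifunctional enzyme that charges both glutamate and proline tRNAs in the cytosol (FBgn0005674, chromosome 3R from 23952136 to 23958391, minus strand). Its IDR peak ran from 23958321 to 23958724 with a signal value of 210.2, at rank 335. Replicate 1 gave 71.8 at rank 306 and replicate 3 gave 91.0 at rank 486. The summit lay between genes, 132 bp upstream of GluProRS and 128 bp from the start of AP-1sigma, a clathrin adaptor subunit gene read in the other direction. The peak was about as close to one start as to the other.

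IleRS, for the cytosolic isoleucyl enzyme (FBgn0027086, chromosome 3L from 22288665 to 22292810, plus strand), had a signal value of 207.5 at rank 348. Its peak ran from 22288279 to 22288682. The replicates gave 80.4 at rank 241 and 91.2 at rank 482. The summit was 184 bp upstream of IleRS and 286 bp from Hem, a gene of the actin-regulating WAVE complex. It stood nearer to IleRS.

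SerRS, for the cytosolic seryl enzyme (FBgn0031497, chromosome 2L from 3035493 to 3037403, minus strand), was the only one of the 8 with its strongest IDR summit downstream of the nearest start site of the synthetase gene. The IDR peak, from 3037150 to 3037553, had a signal value of 198.7 at rank 386, with 59.9 at rank 451 in replicate 1 and 108.4 at rank 343 in replicate 3. Its summit was 51 bp downstream of the start, in a UTR exon, and 59 bp from a start of CG17260. The start sites of SerRS and CG17260 are 8 bp apart.

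ThrRS, which charges threonine tRNA (FBgn0027081, chromosome 2L from 12103751 to 12107170, plus strand), had a signal value of 179.9 at rank 475. Its peak ran from 12103368 to 12103771, and the replicates gave 64.2 at rank 383 and 82.8 at rank 583. The summit was 181 bp upstream of ThrRS and 285 bp from Patsas. It too was nearer to the synthetase gene.

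AspRS was the only synthetase gene with 2 IDR peaks (FBgn0002069, chromosome 2R from 12877004 to 12883168, plus strand). They ran from 12879770 to 12880173 and from 12879972 to 12880375, had signal values of 128.3 and 88.4, and overlapped each other. The strongest overlapping peak of each replicate was the same for both, at a signal value of 51.4 and rank 617 in replicate 1 and at 65.8 and rank 968 in replicate 3. Weaker peaks were also present. One in replicate 1, with 24.9 at rank 2244, had its summit 110 bp upstream of a start, the distance of the second IDR summit. One in replicate 3, with 19 at rank 8142, had its summit 46 bp upstream. The summits were 312 bp and 110 bp upstream of an internal start site of AspRS, and 174 bp and 56 bp from starts of Nmda1, which lies on the other strand inside AspRS. Counted from the most 5' start site alone, AspRS had no IDR peak.

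AsnRS and ProRS-m had the weakest of the 8. AsnRS, for the cytosolic asparaginyl enzyme (FBgn0086443, chromosome 2L from 19129469 to 19131954, minus strand), had a signal value of 124.2 at rank 1007, with 43.7 at rank 852 in replicate 1 and 59.4 at rank 1171 in replicate 3. Its peak, from 19131879 to 19132282, had its summit 127 bp upstream of AsnRS and 242 bp from the dynactin subunit gene DCTN6-p27. ProRS-m, for the mitochondrial prolyl enzyme (FBgn0027082, chromosome 3L from 2650161 to 2651850, minus strand), had a signal value of 76.2 at rank 2368, close to the lowest of the list, 68.9. The replicates gave 26.4 at rank 2051 and 33.8 at rank 3043. Its peak, from 2651785 to 2652188, had its summit 137 bp upstream of ProRS-m, in the 238 bp between that start and the shared start of CG42304 and Snup, a gene for the snRNP import factor snurportin. It was nearer to the shared start of the neighbours.

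**Figure D1:**
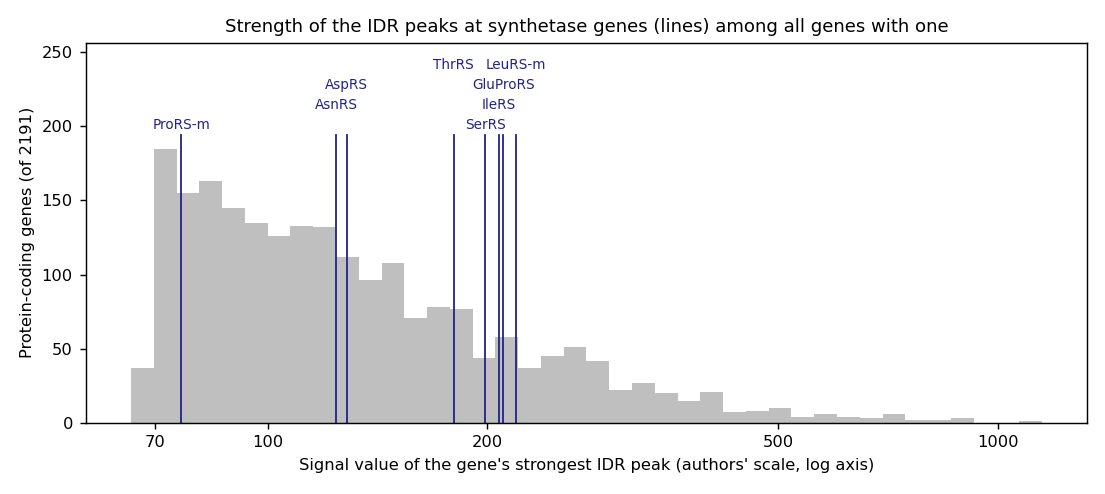
Signal value of the strongest IDR peak of each protein-coding gene that has one, on the authors' scale and a log axis. Grey bars count the 2191 genes, and the lines are the 8 synthetase genes, from 76.2 at ProRS-m to 218.8 at LeuRS-m.

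The 8 best peaks had a median signal value of 189.3, beside a median of 117.2 over the 2191 protein-coding genes with an IDR peak. Of the 8, 5 had a peak among the strongest 25% of the IDR list, beside 32.3% of the 2191 genes. None came near the highest signal value of the list, 1099.8. The histogram of signal values shows 5 synthetase genes close together between 179.9 and 218.8, AspRS and AsnRS near the middle of the distribution, and ProRS-m at its low end.

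Summits lay upstream of the start in 7 of the 8 genes, with a median position of -159 bp. Over all genes with an IDR peak the share upstream was 87.7% and the median position -156 bp, so the distance and side of the summit were close to those of the rest. In 6 of the 8, the strongest summit lay between the synthetase start and a start of another gene read in the opposite direction, beside 52.9% of all genes with an IDR peak. The exceptions were SerRS and LeuRS-m. At LeuRS-m, GluProRS, AspRS and ProRS-m the nearest protein-coding start belonged to another gene. The gene's own start was the nearest at 4 of the 8, beside 67.3% of all genes with an IDR peak.

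**Figure D2:**
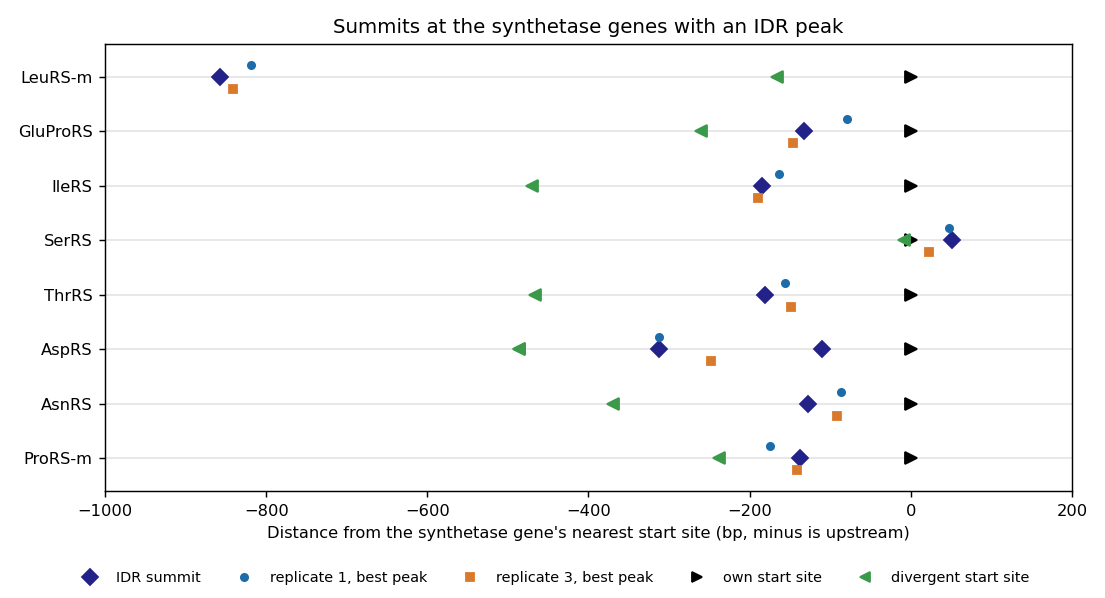
Summit positions at the 8 synthetase genes with an IDR peak, as the distance in bp from the nearest start site of the synthetase gene, minus being upstream. Diamonds are IDR summits, small circles and squares the best summits of replicates 1 and 3, and triangles the start sites of the synthetase gene and of the divergent neighbour; LeuRS-m, at -857 bp, stands apart from the others.

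Counting each peak only for the gene with the nearest start site left 4 of 33 synthetase genes, or 12.1%, beside 10.9% of all protein-coding genes. These were IleRS, ThrRS, SerRS and AsnRS, all without the mitochondrial suffix. GluProRS dropped out on a small difference, with its summit 132 bp from its own start and 128 bp from that of AP-1sigma. Its best summits were 79 bp upstream in replicate 1 and 146 bp upstream in replicate 3. Under that rule the share of synthetase genes was close to the background.

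The count was also set beside the arrangement of neighbouring genes. A start of another protein-coding gene on the other strand, upstream within 1000 bp, was present for 23 of the 33 synthetase genes, or 69.7%, beside 36.2% of all protein-coding genes. All 8 synthetase genes with an IDR peak were among the 23, or 34.8% of them, beside 28.6% of all genes with such a neighbour. Of the 10 without such a neighbour, 0 had an IDR peak, beside 8.39% of all genes without one. With 10 genes and a share this low, that count of 0 is not informative. The part of gene arrangement in the difference from the whole annotation was not tested. Peaks at such pairs cannot be assigned to either gene from these files.

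**Figure D3:**
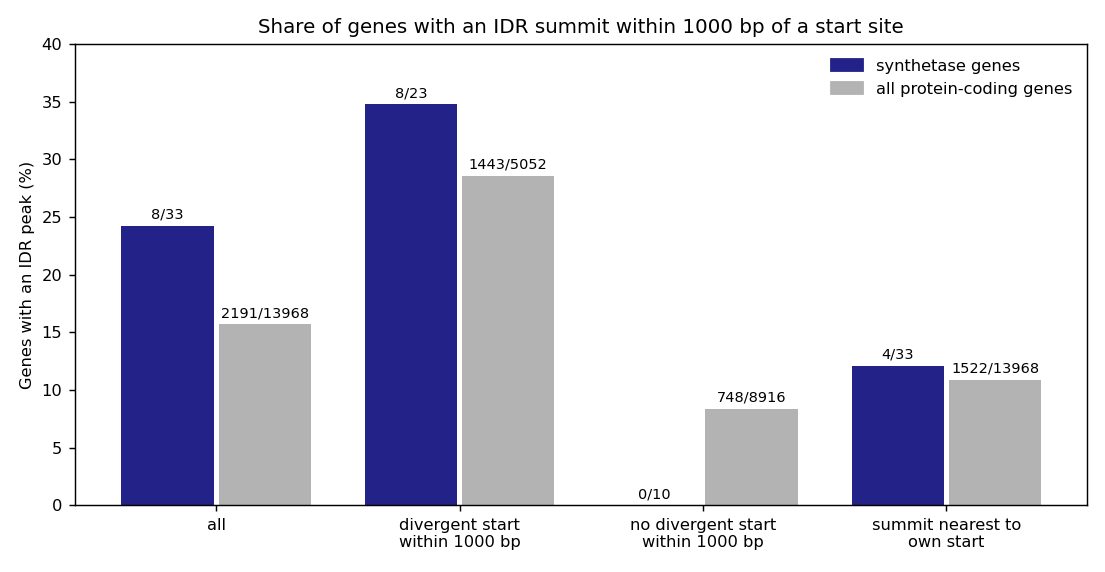
Share of genes with an IDR summit within 1000 bp of a start site, for synthetase genes and for all protein-coding genes, with the counts above each bar. The 2 shares are 24.2% and 15.7% over all genes, 34.8% and 28.6% among genes with a divergent start within 1000 bp, and 12.1% and 10.9% where a peak counts only for the nearest start.

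Genes without the mitochondrial suffix had an IDR peak in 6 of 18 cases, or 33.3%, and genes with it in 2 of 15, or 13.3%, beside 15.7% of all protein-coding genes. The difference was not tested, since genes are not replicates. A divergent neighbour was present at 16 of the 18 and at 7 of the 15. Among genes with such a neighbour the counts were 6 of 16, or 37.5%, and 2 of 7, or 28.6%, beside 28.6% of all genes with such a neighbour. The mitochondrial shares were thus near the background in both comparisons. Any start site of a gene could count, and genes with a single start site were 11 of the 18 and 13 of the 15. Of these single-start genes, 2 of the 11 and 2 of the 13 had an IDR peak, beside 1227 of 10269 over the whole annotation. The part of start site number in the difference was not tested. For 12 amino acids, matched by the code in the symbol, the rule found both kinds of gene. The peak was at the cytosolic gene alone for 4 of them (Asn, Asp, Ile and Ser), at the mitochondrial gene alone for 1 (Leu), and at neither for 7. Glutamate and proline are not among the 12, because GluProRS serves both and its symbol matches neither GluRS-m nor ProRS-m. GluProRS and ProRS-m both had an IDR peak, so proline had one at both genes, and GluRS-m had none.

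Among the 2746 strongest peaks, 10 synthetase genes had one in replicate 1, beside 16.1% of all genes, and 8 in replicate 3, beside 15.3%. In both replicates there were 7, beside 12.6% of all genes, and these were the 8 genes with an IDR peak less ProRS-m, whose replicate 3 peak ranked 3043. Over the 8 genes the signal values ran from 26.4 to 80.4 with a median of 60.8 in replicate 1, and from 33.8 to 117.9 with a median of 86.9 in replicate 3. Over the synthetase genes with no IDR peak the highest values were 25.5 and 36.8, so the groups did not overlap in replicate 1 but did in replicate 3. The IDR list was made from these replicate lists, so that split is no separate support for it.

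**Figure D4:**
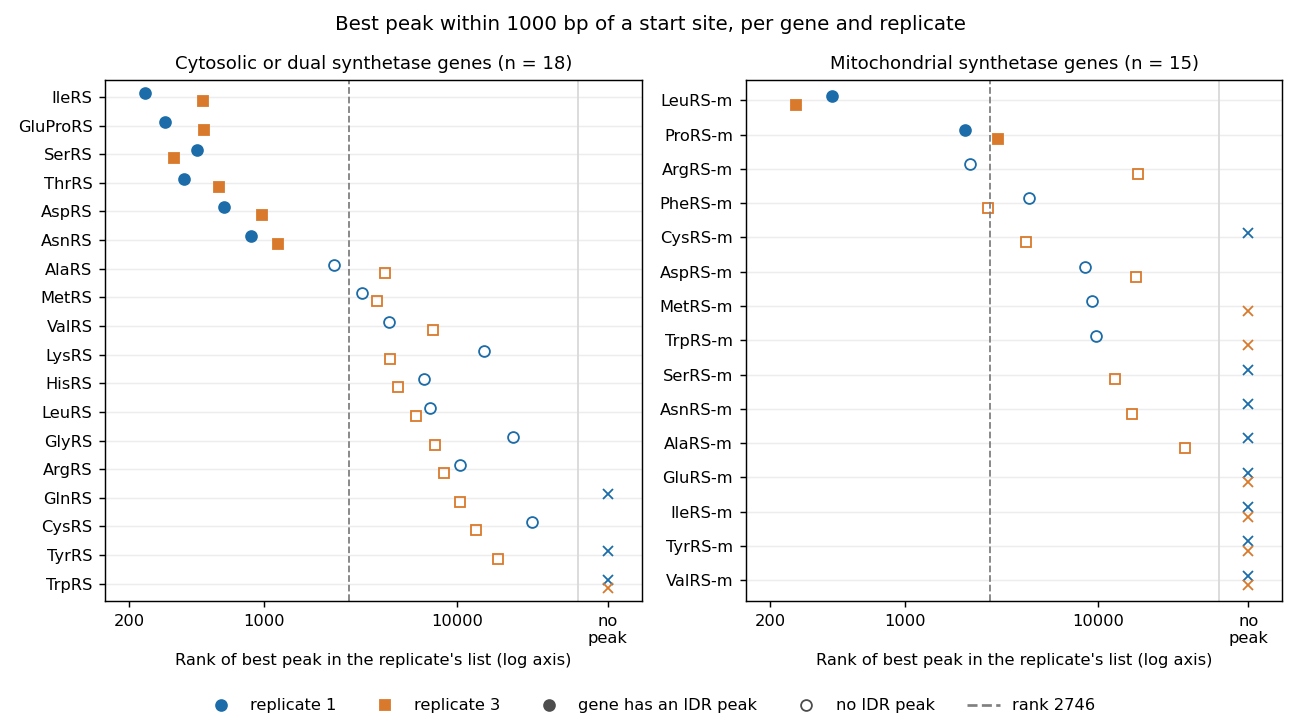
Rank of the strongest peak within 1000 bp of a start site in the list of replicate 1 (circles) and replicate 3 (squares), on a log axis with rank 1 the strongest, for 18 genes without and 15 with the mitochondrial suffix. Filled symbols are genes with an IDR peak, crosses mark genes with no peak in that list, and the dashed line is rank 2746.

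Just below the IDR peaks stood 3 genes that reached the strongest 2746 in 1 replicate only. AlaRS, for the cytosolic alanyl enzyme, had a signal value of 24.6 at rank 2299 in replicate 1 and of 27.6 at rank 4218 in replicate 3, with overlapping peaks 80 bp and 64 bp upstream of a start. ArgRS-m, for the mitochondrial arginyl enzyme, had 25.5 at rank 2169 in replicate 1, but 13.8 at rank 16091 in replicate 3. PheRS-m, for the mitochondrial phenylalanyl enzyme, had 36.8 at rank 2694 in replicate 3 and 16.8 at rank 4369 in replicate 1. At ArgRS-m and PheRS-m the strongest summits of the replicates also differed in place, at -112 and -382 bp and at -294 and -30 bp. Peaks of the replicates did overlap at both genes when weaker ones were counted. ArgRS-m had a weaker replicate 3 summit at -67 bp (11.4, rank 23521), and PheRS-m a weaker replicate 1 summit at -93 bp (14.2, rank 6195).

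The next 5 genes by their better rank were MetRS, CysRS-m, ValRS, LysRS and HisRS. MetRS had 20.0 at rank 3212 in replicate 1 and 29.2 at rank 3824 in replicate 3, with summits 160 bp and 172 bp upstream. CysRS-m had no peak in replicate 1, and in replicate 3 it had 27.5 at rank 4236. ValRS had 16.7 at rank 4411 and 19.8 at rank 7474, at places that did not overlap, and LysRS 10.3 at rank 13736 and 26.6 at rank 4486. HisRS had 13.7 at rank 6675 and 25 at rank 4921, with summits 957 bp and 918 bp downstream of its start.

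Weak peaks were common over the whole annotation, so those of the other synthetase genes carry little information. A peak of any strength was found at 22 of 33 synthetase genes in replicate 1, beside 55.2% of all genes, and at 26 in replicate 3, beside 60.1%. Both lists had one at 20 synthetase genes, beside 43.1%, and the peaks of the replicates overlapped at 18, beside 38.1%. Overlapping peaks were present at 14 of the 18 genes without the mitochondrial suffix and at 4 of the 15 with it. Neither list had a peak at 5 genes, TrpRS, GluRS-m, IleRS-m, TyrRS-m and ValRS-m, which are named after their values were seen.

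CAGCTG, an E-box class, was in the promoter, taken as 250 bases before to 50 after the most 5' start site, of 16 of the 33 genes, or 48.5%, beside 17.6% of 13968 promoters. The promoter search was not planned. Of the sequences searched, this one stood furthest above the share of all promoters, and the others are given at the end. IDR peaks were at 4 of the 16 genes with CAGCTG and at 4 of the 17 without it. These peaks could be at any start site, whereas only the promoter of the most 5' start was searched. AspRS, among the genes without CAGCTG, had no IDR peak at that start. Over all protein-coding genes the shares were 20.5% with CAGCTG and 14.7% without. Of the 4 with CAGCTG, IleRS had the site 107 bp from the IDR summit, GluProRS 163 bp, SerRS 177 bp and LeuRS-m 869 bp. The sites of these 4 genes follow, with those of 3 of the 12 genes that have CAGCTG but no IDR peak. Each has 12 flanking bases on each side and the site in capitals, on the strand of the synthetase gene.
IleRS, chr3L:22288574-22288603, plus strand: cagtgctgtcgtCAGCTGattatcaaggat
GluProRS, chr3R:23958346-23958375, minus strand: tgtagacgttagCAGCTGgccgtactcgtg
SerRS, chr2L:3037515-3037544, minus strand: gactattttgaaCAGCTGctaaaagcaagt
LeuRS-m, chr3L:4825851-4825880, plus strand: gatgcagagaaaCAGCTGttcgattgtaga
ArgRS, chrX:15844175-15844204, minus strand: gcgtgacatcacCAGCTGttatcgttatcg
MetRS-m, chr3R:14259979-14260008, minus strand: gcactggtggcaCAGCTGttcaatgttata
TrpRS-m, chr3L:17849688-17849717, plus strand: tatcactgttcaCAGCTGtcgtaccggctt

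The first base of the site stood at -79 in IleRS and -129 in SerRS, counted from the most 5' start site with the start as base 1, and at 29 in GluProRS and 11 in LeuRS-m. In the genes without an IDR peak it stood at -47 in ArgRS, -5 in MetRS-m and -27 in TrpRS-m. A match says only that these letters are present.

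Of 16 other genes of tRNA charging and its use, 3 had an IDR peak, or 18.8%, beside 15.7% of all protein-coding genes and 19.6% of those whose symbol is not a CG number, so this list was near the background. beta-PheRS, a subunit of the cytosolic phenylalanyl enzyme, had a signal value of 74.8 at rank 2437, with 14.3 in replicate 1 and 44.1 in replicate 3. GatA, a subunit of the mitochondrial enzyme that forms glutaminyl-tRNA from glutamyl-tRNA, had 83.7 at rank 2032, with 18.8 and 45.9. eEF1alpha1, which carries charged tRNA to the cytosolic ribosome, had 109.6 at rank 1302, with 36.6 and 53.5, and was the only one of the 3 among the strongest 2746 of both replicates. All 3 summits were upstream of a start, by 96 bp at beta-PheRS and 64 bp at GatA. The gene's own start was the nearest at 2 of the 3. The GatA summit was nearer to the start of P5cr, which lies on the other strand 74 bp upstream of GatA.

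No IDR peak was found at the other genes of that list. They are alpha-PheRS, the SerRS-like Slimp, the multisynthetase scaffold genes AIMP1, AIMP2 and AIMP3, GatB, GatC, the proofreading gene Dtd, mEFTu1, mEFTu2, mEFTs, the kinase gene Gcn2, which senses uncharged tRNA, and crc, the fly ATF4. Adding alpha-PheRS, beta-PheRS and Slimp to the synthetases gave 9 of 36 genes. AIMP1 had no peak in either replicate list.

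Other translation genes are given for scale. IDR peaks were at 24.2% of synthetase genes, 53.3% of 92 genes with a cytosolic ribosomal protein symbol and 23.3% of 73 with a mitochondrial one, with median signal values of 189.3, 121.6 and 132.4. These differences were not tested.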

How the data were processed

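Chromatin immunoprecipitation sequencing of cato-eGFP from whole embryos gave 2 replicates of 1 condition. The authors deposited peak lists on dm6, 1 per replicate, 1 pooled and 1 thresholded by IDR. Each replicate list derives from the alignment of that library and the pooled list from both, each with 1 further file that is not described, per the text lists deposited with each library. Signal values are those in the lists as deposited, on the scale of the authors' peak caller, and were used to order peaks inside 1 list. Aligner, caller and versions: not given in the sources used here. Depth is therefore unknown and no counting error could be given. The lists on dm3 were not analysed here.

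The start sites are those of Ensembl release 115 (BDGP annotation 6.54, dm6) and sequence from the RefSeq copy of that assembly. Assignment was tested on simulated peaks. Overlap needed 1 bp. Work used Python 3.11.15, numpy 2.4.6 and matplotlib 3.10.9. Positions are 1-based. The members, the lists and the alternatives were chosen with earlier results of these data known. Members with an IDR peak are named, then those among the strongest 2746 of a replicate, then 5 by rank. Of the 16 other pathway genes, 5 have names respelled as the annotation gives them. Alternatives concerned distance, overlap, start sites, gene assignment, threshold, replicates, rank and motif window. No test between groups was possible with 1 condition.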

Additional observations from a re-analysis of the deposited data

How the results depend on the processing

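Of 58 alternative values, 49 stayed within 1.5 times the reported count or within the spread between genes, 9 moved further and 0 reversed. By the rule used, a count could not reverse, and only a median summit position could. The 49 include motif counts of 0 that stayed 0, which are not informative. They also include the RefSeq start sites, which gave the same 8 genes and the same 15.7% of all genes. Counting within 2000 bp, or by any base of the peak, could not lower a count. The count of 8 synthetase genes with an IDR peak became 4 when a peak counted only for the gene with the nearest start site. Leaving out the genes whose summit was nearer another start, a setting added after seeing the data, gives 4 by construction and is no separate check, though it is among the 58. The mitochondrial count of 2 became 0 with nearest start sites only, and 1 within 500 bp, in the stronger 50% of IDR peaks or in the pooled list. In the strongest 2746 pooled peaks the count of 8 became 6, beside 13.5% of all genes, without AspRS (pooled rank 15322) and ProRS-m (6185). Of the IDR peaks, 67.6% overlapped one of these pooled peaks, beside 84.2% for replicate 1 and 88.4% for replicate 3, and the cause was not tested. From 1 replicate alone, the count ran from 8 to 10, for genes without the mitochondrial suffix from 6 to 7, for those with it from 2 to 3, and the median summit position from -147 to -134 bp. All 8 genes remained in the strongest 2746 of replicate 1 and 7 in those of replicate 3. The 7 genes with a peak in both replicates became 11 among the strongest 5000, 14 among the strongest 10000 and 20 in the full lists, beside 18.8%, 25.8% and 43.1% of all genes. Median signal values of replicate and pooled lists are on other scales and were not compared. No paired analysis was possible because there is 1 group. Read depth is unknown, so the absence of an IDR peak is not the absence of binding.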

Other observations

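Other sequences searched in the 33 synthetase promoters are given as counts beside the share of all 13968 promoters. TATCGATA, the site of DREF, was in 5 promoters, beside 9.36%, among them that of IleRS, the only one of the 5 with an IDR peak. CGATAG, the site of BEAF, was in 8, beside 19.5%, and 3 of these, AsnRS, GluProRS and IleRS, had an IDR peak. GGTCACAC, the core of promoter motif 1, was in 4, beside 7.69%, and 1 of these, ProRS-m, had an IDR peak. GAGAG was in 6, beside 29.7%, CATATG in 4, beside 7.81%, TATAAA in 18, beside 45.8%, and CANNTG in 28, beside 77.2%. The median GC content was 36.0% in the promoters of the 8 genes with an IDR peak, 35.3% in those of the other synthetase genes and 38.0% over all promoters. All these promoters were cut at the most 5' start site, where AspRS had no IDR peak. The IDR summit of LeuRS-m, 857 bp upstream, lay outside its promoter window.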
